A study of Mus musculus with 2 samples.

Results

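The 10 genes described here encode enzymes of thiol and peroxide metabolism: Txnrd1, Txn1, Srxn1, Prdx1, Prdx5, Prdx6, Cat, Nqo1, Sod1 and Sod2. They were listed by name, and all 10 were among the 26124 genes counted in each of the 2 single-cell libraries. The cells were lineage-depleted (Lin-) bone marrow cells of C57BL/6 mice aged 8 to 10 weeks, cultured with 20 ng/ml GM-CSF. On culture day 3, 300 µM heme-albumin was added to the heme cultures and albumin to the control cultures. Antibody hashtags marked cells of culture days 0, 3, 4, 5 and 7, which were pooled into 1 library for each agent, so that 10 cultures were compared. Days 0 and 3 precede the exposure, so the 2 libraries differ there by no agent. The labels give no genetic change. The series design text gives hours of exposure that differ from the harvest days, and the days of the hashtags are used throughout. GM-CSF cultures of this kind hold neutrophil precursors, monocytes, macrophages and dendritic cells together.

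Superoxide formed in the cell is turned into hydrogen peroxide by the dismutases Sod1, in the cytosol, and Sod2, in mitochondria. Peroxiredoxins and catalase then remove the peroxide. Peroxiredoxins are recharged by thioredoxin (Txn1), which is itself reduced by thioredoxin reductase (Txnrd1) at the cost of NADPH, while sulfiredoxin (Srxn1) rescues peroxiredoxins that were oxidised too far. Free heme and its iron promote oxidation, and the transcription factor NRF2 is known to drive several of these genes through antioxidant response elements near their start sites.

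Promoter sequence is shown for the genes whose windows held an AP-1 site or the core of the element through which NRF2 is known to act. RefSeq promoters on GRCm38.p6, each 300 bases long with 250 before and 50 after a start site, were found for 9 of the 10 genes (not Prdx6), and for Txnrd1 there were 3, which made 11 windows in all. Each was searched on both strands for the antioxidant response element core, TGACNNNGC, and for the AP-1 site, TGACTCA, which overlaps the first where it reads TGACTCAGC. In the following stretches, written 5′ to 3′ along the gene, capitals mark the match. The stretches precede the annotated gene, except that of Txnrd1, which lies within the bounds of the gene, before the second RefSeq start.

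Prdx1, chr4:116685441-116685499: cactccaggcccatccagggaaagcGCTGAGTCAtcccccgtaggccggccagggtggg

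Prdx1, chr4:116685349-116685393: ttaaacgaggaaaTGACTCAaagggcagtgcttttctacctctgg

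Srxn1, chr2:152105397-152105453: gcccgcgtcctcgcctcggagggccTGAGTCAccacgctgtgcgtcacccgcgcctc

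Srxn1, chr2:152105454-152105510: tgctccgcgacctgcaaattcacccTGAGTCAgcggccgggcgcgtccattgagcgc

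Txnrd1, chr10:82859089-82859147: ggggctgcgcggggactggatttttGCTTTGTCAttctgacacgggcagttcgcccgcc

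Sod1, chr16:90220681-90220739: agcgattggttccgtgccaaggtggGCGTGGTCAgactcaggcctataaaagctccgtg

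The response element core was found in 4 of the 11 windows, those of Prdx1, Srxn1, Txnrd1 and Sod1, and 12.4% of 32851 promoters of the same length held it. In Prdx1 the core began 133 bases before the start and contained an AP-1 site, and a second AP-1 site began 237 bases before it. In Srxn1 the core lay after the start, and AP-1 sites began 102 and 45 bases before it. The AP-1 letters were found in the windows of these 2 genes and in 5.20% of all promoters. The windows of Cat, Nqo1, Txn1, Prdx5 and Sod2 held neither set of letters, which says only that these letters are not in those 300 bases. A match is a run of letters and no evidence that a factor was bound. On days 4, 5 and 7 the heme to control ratios of the 4 genes with a core match were 2.20 or more. Sod1 and Srxn1 among them were at 2.31 and 2.22 on day 0 already. Nqo1 and Cat, without a match, had the highest ratios of day 7, while Txn1, Prdx5 and Sod2, also without, stayed at 1.49 or less. A link between match and ratio was not tested.

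The deposited tables held 13961 control and 17378 heme barcodes, of which 12050 and 14164 carried a single hashtag. Each culture had 1716 to 3464 such barcodes and 19140367 to 75505515 UMIs, and the heme culture of day 3 was the deepest, with a median of 19696 UMIs per cell. The share of ribosomal protein UMIs was 16.6 to 32.5% in the control cultures and 12.5 to 27.6% in the heme cultures, and 49 single-hashtag barcodes occurred in both libraries. Without them, the counts of the 10 genes at least 2-fold higher in whole heme than control cultures stayed at 2, 0, 6, 6 and 7 from day 0 to day 7. Hmox1, the heme-degrading oxygenase used as a check of exposure, was at 1.83, 35.9, 62.1, 62.4 and 84.1 CPM (UMIs per 1000000 UMIs of a culture) in the control cultures in order of day. The heme cultures had 124, 151, 1939, 3480 and 5137 CPM, with the 3 exposed cultures above all others. The unexposed cells of the heme library held Hmox1 at 2.42% (day 0) and 2.93% (day 3) of its day 7 level, far above control day 0, and the part of RNA or hashtags shared within the pooled library in the other values was not tested. Each agent had 1 library, so no test across cultures was possible and no p-value is given. The intervals below are exact 95% Poisson intervals, which cover counting error only and none of the variation between cultures.

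Before exposure few of the genes differed 2-fold between the libraries, and after it most did. The heme level was at least 2-fold the control level for 2 of the 10 genes on day 0, for 0 on day 3, for 6 on day 4, for 6 on day 5 and for 7 on day 7. Over all genes with at least 20 UMIs in the 2 cultures together, the same was seen for 16.9%, 6.68%, 11.1%, 10.5% and 15.2%. The median log2 ratio of the 10 genes was 0.03, 0.14, 1.34, 1.26 and 1.80 from day 0 to day 7, and that of all genes was 0.48, 0.38, 0.35, 0.25 and 0.30. Because the median gene was itself higher in the heme library on every day, including those before exposure, each ratio was also divided by the median ratio of all genes. After this division 0, 0, 5, 5 and 6 of the 10 genes were at least 2-fold higher, against 4.52%, 2.51%, 5.78%, 6.73% and 9.77% of all genes. None of the 10 was at 0.5 of the control level or less on any day, where the shares of all genes were 0.713%, 0.351%, 1.67%, 3.56% and 7.32%. With TMM or DESeq2 scaling the day 7 split was 6 higher and 1 lower, the lower gene being Prdx5. Of all genes, 9.98% were higher and 10.2% lower with TMM, and 10.3% and 9.87% with DESeq2. Among all genes 49.5% and 51.2% of the calls were then to the higher side in place of 67.5%. On day 7 the 8 markers of mature dendritic cells summed to 12645 CPM in the control and 3786 CPM in the heme culture. The 9 macrophage markers summed to 726 and 1003 CPM and the 8 neutrophil markers to 4105 and 17942 CPM, and no marker of these lists was at 0. In these sums over whole cultures, a change in the make-up of the cells and a change of level per cell cannot be told apart.

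**Figure D1:**
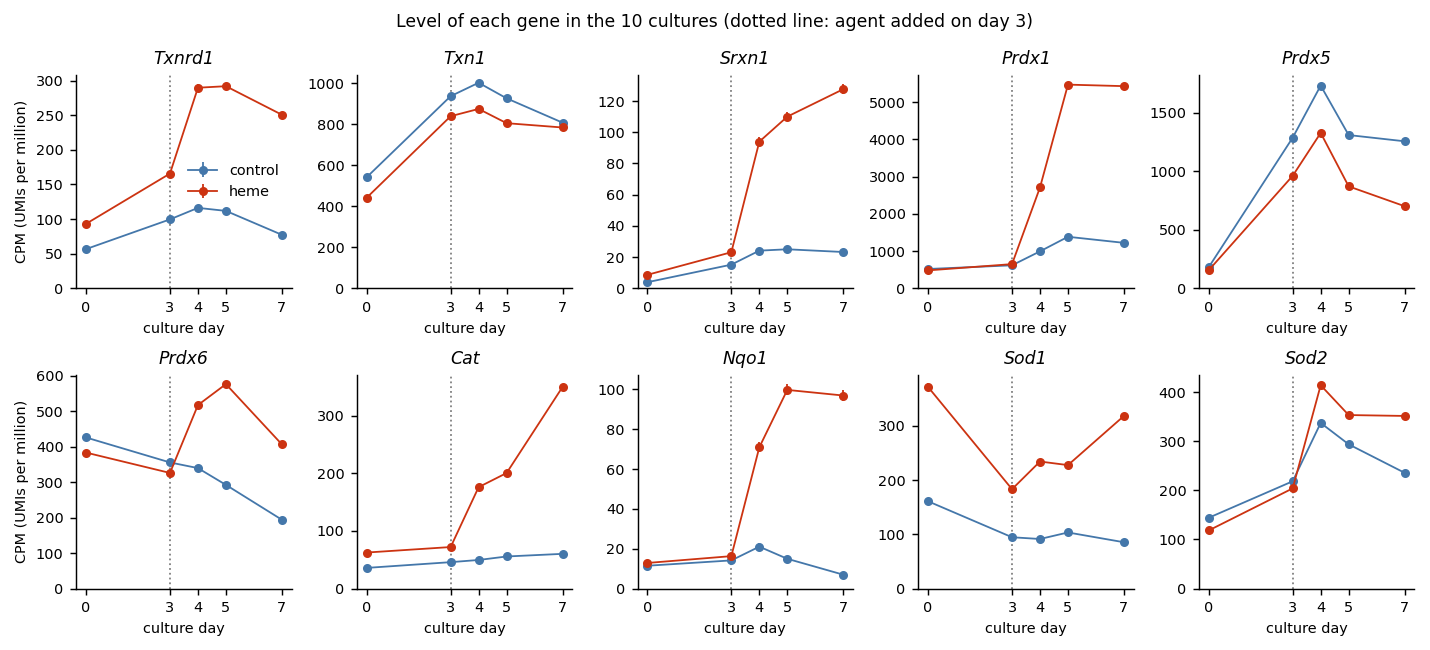
Level of each of the 10 genes in CPM against culture day, for the control (blue) and heme (red) libraries, with exact 95% Poisson intervals, most of them smaller than the points. The lines of Prdx1 and Nqo1 part after the dotted line at day 3, those of Sod1, Txnrd1, Cat and Srxn1 are apart from day 0 and further apart on day 7, and those of Txn1 and Prdx5 run lower in heme.

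The 3 peroxiredoxins of the list went apart in direction. Prdx1, the abundant cytosolic peroxiredoxin that relies on thioredoxin, was at 517, 616, 991, 1382 and 1219 CPM in the control cultures of days 0, 3, 4, 5 and 7. The heme cultures held 479.6, 648, 2707, 5468 and 5428 CPM. The 2 libraries were close before exposure, and every exposed heme culture lay above every control culture. The ratio of heme to control was 0.928 and 1.05 on days 0 and 3, then 2.73, 3.96 and 4.45 (4.41 to 4.49) on days 4, 5 and 7. Among cells within the limits of the study on genes and ribosomal UMIs, the day 5 ratio was 2.18. On days 4, 5 and 7 Prdx1 had the highest level of the 10 genes in the heme cultures, by a count of transcript ends that is not divided by length.

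Prdx6, which reduces phospholipid hydroperoxides and draws on glutathione in place of thioredoxin, showed a smaller difference. The control level was 426, 355, 339, 292 and 194 CPM from day 0 to day 7, and the heme level was 383, 326, 517, 576 and 406 CPM. The control cultures declined with time, so that part of the day 7 ratio of 2.10 (2.04 to 2.15) stands beside a control level that was 0.546 of its own day 3 value. The ratios of days 0, 3, 4 and 5 were 0.900, 0.917, 1.52 and 1.97. With TMM scaling the day 7 ratio was 1.72, below the 2-fold line. A paralogue listed as Prdx6b had 11 control UMIs and 0 heme UMIs on day 7, and reads of processed copies of Prdx1, Prdx6 and Txn1 cannot be separated from the genes themselves in these counts.

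Prdx5, a peroxiredoxin of mitochondria, peroxisomes and cytosol, was lower in the heme library on each of the 5 days. Its control level was 181, 1288, 1732, 1309 and 1256 CPM, and its heme level was 155, 961, 1328, 871 and 701 CPM. The ratio was 0.855 and 0.747 before exposure and 0.766, 0.665 and 0.558 (0.551 to 0.566) on days 4, 5 and 7. Divided by its day 3 value, the ratio came to 1.03, 0.891 and 0.748 for these 3 days, so the day 4 difference was no larger than that seen before heme was added.

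The genes that serve the peroxiredoxins divided likewise. Srxn1, which reactivates overoxidised peroxiredoxins, was at 3.87, 15.1, 24.1, 24.98 and 23.2 CPM in the control cultures. Its heme level was 8.60, 23.1, 93.99, 110.0 and 128 CPM, and the lowest exposed culture held several times the highest control value. The ratio was 2.22 (1.70 to 2.94) on day 0, from 74 control and 215 heme UMIs, and 1.53 on day 3. It then was 3.90, 4.40 and 5.49 (5.14 to 5.88), the last being 3.60 times the day 3 ratio.

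Txnrd1, the cytosolic selenoenzyme that reduces thioredoxin, was at 56.6, 99.5, 116, 112 and 77.2 CPM in the control cultures and at 93.1, 166, 289.8, 292 and 251 CPM in the heme cultures. It was higher in the heme library before exposure, with ratios of 1.65 and 1.67, and the ratios of days 4, 5 and 7 were 2.50, 2.61 and 3.25 (3.12 to 3.37). Relative to its day 3 ratio the day 7 value was 1.95. Thioredoxin itself did not follow its reductase. Txn1 was at 541, 936, 1001, 926 and 807 CPM in the control cultures and at 441, 838, 874, 804 and 783 CPM in the heme cultures. Its ratio lay between 0.816 and 0.971 on the 5 days, the range before exposure being 0.816 to 0.896.

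On day 7 the quinone reductase Nqo1 and catalase had the highest ratios of the 10 genes, the interval of catalase overlapping that of Srxn1. Cat, the peroxisomal enzyme that splits hydrogen peroxide, was at 35.8, 45.8, 49.6, 55.6 and 60.2 CPM in the control cultures and at 62.5, 72.0, 176, 201 and 350.0 CPM in the heme cultures. Every heme culture was above every control culture, also before exposure. The ratio was 1.74 and 1.57 on days 0 and 3 and 3.55, 3.60 and 5.81 (5.57 to 6.06) on days 4, 5 and 7. The day 7 ratio was 3.69 times that of day 3.

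Nqo1, which reduces quinones by a 2-electron transfer and is a classical NRF2 target, was a gene of low level in the control cultures, at 11.4, 14.1, 21.0, 14.9 and 6.96 CPM. Exposed and unexposed heme cultures held 12.8, 16.3, 70.9, 99.7 and 96.9 CPM. The libraries were close on days 0 and 3, with ratios of 1.12 (0.942 to 1.34) and 1.15 (1.04 to 1.28), which lay below 1 with TMM or DESeq2 scaling. After exposure the ratio was 3.37, 6.68 and 13.9 (12.4 to 15.7), and with every cell given the same weight that of day 5 was 3.87. From day 5 to day 7 the heme level hardly moved while the control level went from 14.9 to 6.96 CPM, so the step between these ratios lay in the control cultures.

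Of the dismutases, Sod1 differed between the libraries before exposure too. It was at 161, 94.6, 91.4, 103 and 85.4 CPM in the control cultures and at 372, 183, 234, 228 and 318 CPM in the heme cultures. Its ratio was 2.31 (2.22 to 2.41) on day 0 and 1.94 on day 3, before any exposure, and 2.56, 2.20 and 3.73 on days 4, 5 and 7. Divided by the day 3 ratio, these were 1.32, 1.14 and 1.93. The Sod1 difference of day 5 was thus no larger than that of day 0.

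Sod2 was at 144, 218, 337, 294 and 236 CPM in the control and at 118, 204, 414, 353 and 351 CPM in the heme cultures. It reached its highest level on day 4 in both libraries. The ratio was 0.821, 0.934, 1.23, 1.203 and 1.49 from day 0 to day 7, which passed 2-fold on no day, and with DESeq2 scaling it was 0.980 on day 4, below 1. The ratio of all genes had a median of 1.28, 1.19 and 1.23 on the 3 exposed days, so Sod2 was near the middle of all genes on days 4 and 5, at percentiles of 45.5 and 51.3. Nqo1 on day 7 stood at percentile 99.2, Cat at 97.5, Srxn1 at 97.3 and Prdx1 at 96.3.

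**Figure D2:**
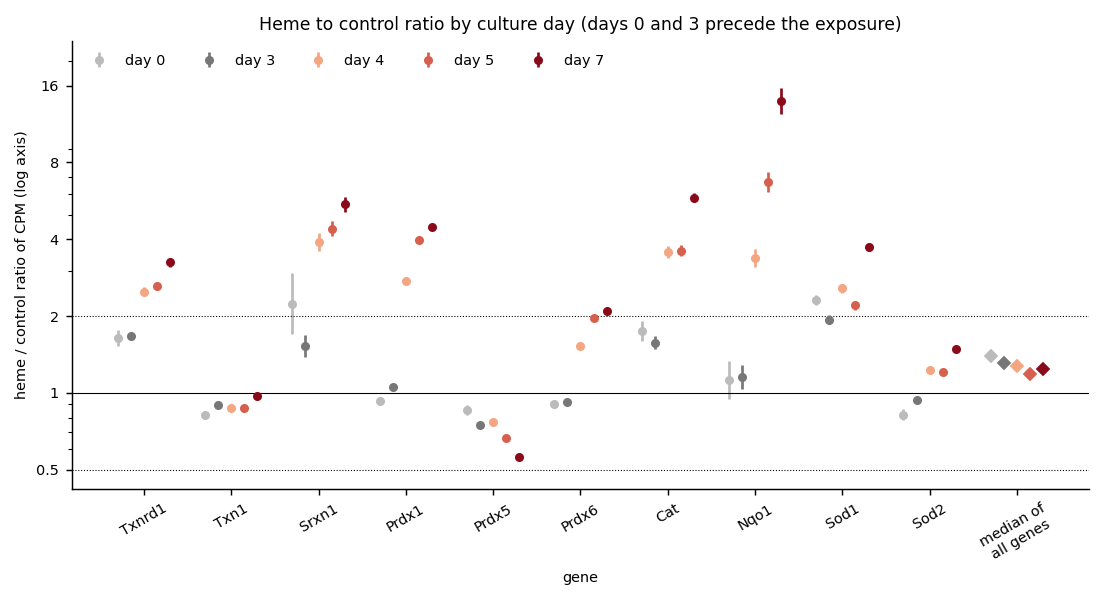
Ratio of heme to control CPM on a log axis for each gene, coloured by culture day, with exact 95% Poisson intervals; diamonds give the median ratio of all genes tested and dotted lines mark 2-fold. The grey points of days 0 and 3 lie near 1 for Prdx1, Prdx6, Nqo1 and Sod2 but near 2 for Sod1. That of Srxn1 is at 2.22 on day 0, and those of Txnrd1 and Cat lie between 1.57 and 1.74. Nqo1 reaches 13.9 on day 7 and Prdx5 goes down to 0.558.

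Comparison within a library avoids the offset between libraries. In the heme library, 5 of the 10 genes were at least 2-fold above their own day 3 level on day 4, 4 on day 5 and 4 on day 7, where all genes gave 6.87%, 10.7% and 12.1%. In the control library the counts were 0, 1 and 0, against 4.51%, 9.98% and 15.3% of all genes, and Prdx1 on day 5 was the 1 gene counted, at 2.24 times its day 3 level. In the heme library Prdx1 was 4.18, 8.44 and 8.38 times its day 3 level on days 4, 5 and 7. Nqo1 was 4.36, 6.13 and 5.96 times its day 3 level there, and on day 7 of the control library it was at 0.493 of it, the only gene of the list at 0.5 or less, where 9.51% of all genes were. Srxn1 was 4.07, 4.76 and 5.53 times and Cat was 2.44, 2.78 and 4.86 times the day 3 level in the heme library. Sod2 on day 4, at 2.03 times, was the fifth gene. The timing differed among the genes: Prdx1 and Nqo1 were at about their day 7 level on day 5, whereas Cat went from 201 to 350.0 CPM between these days.

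The levels in single cells were compared after each barcode was thinned to 3000 UMIs, which left out 79 to 374 shallower barcodes of a culture. On day 7 the median cell of the heme culture then held 11 Prdx1 UMIs, with a 10th to 90th percentile of 2 to 31, and the median control cell held 2, with 0 to 7. On day 4 the medians were 2 and 1 and the 90th percentiles 14 and 6, and cell types were not separated in these values. On day 3 the medians were 1 and 1 and the 90th percentiles 4 and 4. At least 1 Cat UMI was found in 60.0% of heme and 16.7% of control cells on day 7, and in 18.1% and 11.6% on day 3. For Srxn1 the shares were 29.1% and 5.41% on day 7, and 6.44% and 3.59% on day 3. For Nqo1 they were 21.4% and 2.14% on day 7, and 5.41% and 3.98% on day 3. Unthinned, 60.8% of heme and 7.58% of control cells held a Nqo1 UMI on day 7, at median depths of 16856 and 11831 UMIs. Txn1 was found in most cells whatever the agent, with 85.9% and 87.1% on day 7. These cultures hold no cell type known to lack the 10 genes, so a background share from free RNA was not measured apart from the day 3 values.

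**Figure D3:**
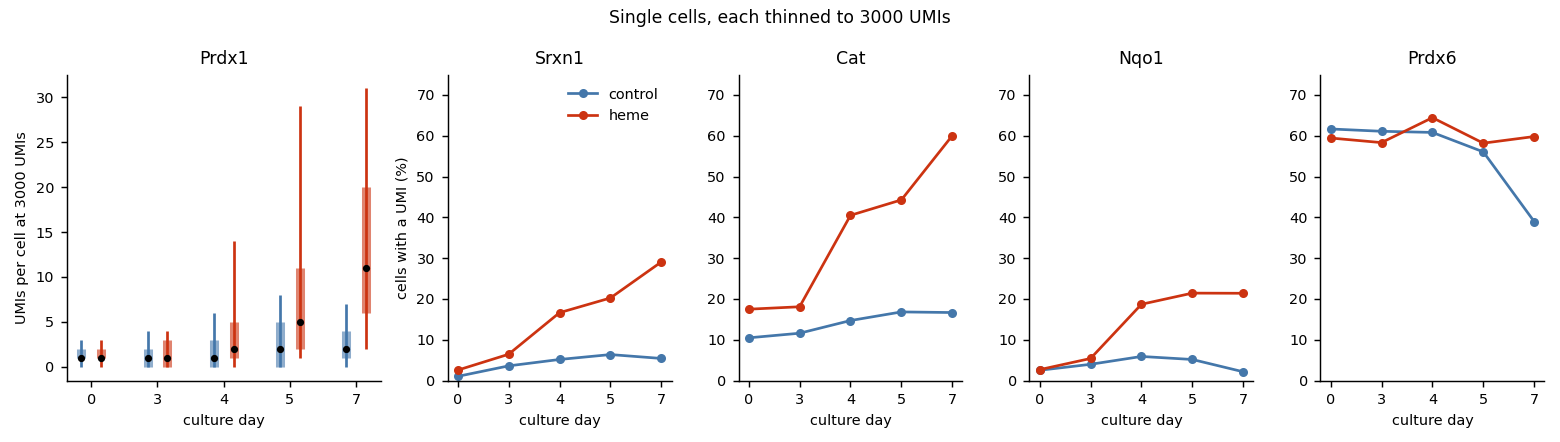
Single cells thinned to 3000 UMIs by culture day in the control (blue) and heme (red) libraries. Left, Prdx1 UMIs per cell, with the median as a black point, the 25th to 75th percentile as a thick bar and the 10th to 90th as a thin line; right, the percentage of cells with at least 1 UMI of Srxn1, Cat, Nqo1 and Prdx6. The heme bars of Prdx1 lengthen upwards from day 4, and the control line of Prdx6 goes down to 39.0% on day 7 while its heme line ends at 59.8%.

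Cells were next divided by raw UMIs of Camp (10 or more), a neutrophil granule gene, of Marco (2 or more), a macrophage scavenger receptor, and of Ccr7 (2 or more), a chemokine receptor of mature dendritic cells. The Camp gate held 815, 1139 and 596 control and 1320, 1665 and 332 heme barcodes on days 3, 4 and 5. The Ccr7 gate held 164 and 645 control and 156 and 61 heme barcodes on days 5 and 7. On the other days the control culture, the heme culture or both held under 50 barcodes of the gate, and no ratio was formed. The 8 neutrophil markers summed to 178820 to 309453 CPM in the Camp gate of days 3 to 7, and the 8 markers of mature dendritic cells to 16636 to 21472 CPM in the Ccr7 gate from day 3 onwards. The Marco gate held 1192 barcodes, 41.1%, in the heme culture of day 7, but 16 in the control culture of that day. It also held 0.799% and 1.24% of heme barcodes on days 0 and 3, whose cells on day 0 carried erythroid and granulocyte progenitor markers at 1535 and 3954 CPM and macrophage markers at 88.0 CPM, with 4 of the 9 macrophage markers at 0. These raw gates depend on the depth of a cell.

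Within the Camp gate of day 4, 6 of the 10 genes were at least 2-fold higher in heme, where 19.8% of all genes were, and the median gene had a ratio of 1.46. Srxn1 was at 6.00 CPM in control and 42.6 CPM in heme, a ratio of 7.10 (5.57 to 9.16). Cat was at 32.4 and 147 CPM, a ratio of 4.53, and Sod1 at 45.6 and 194 CPM, a ratio of 4.25. Prdx1 was at 152 and 634 CPM, a ratio of 4.16, and the heme library already held 308 CPM against 183 CPM in the Camp gate of day 3. Txnrd1 had a ratio of 3.12 and Nqo1 one of 2.57. Prdx6, in contrast, was at 367 and 373 CPM, a ratio of 1.02 (0.979 to 1.06), and Prdx5 at 2657 and 1871 CPM, a ratio of 0.704. In the Camp gate of day 3, before exposure, 3 of the 10 genes passed 2-fold, where 16.9% of all genes did: Sod1 at 2.54, Cat at 2.30 and Srxn1 at 2.08. Hmox1 was at 16.1 CPM in control and 126 CPM in heme there, a ratio of 7.85. The part of shared RNA or hashtags in these day 3 ratios was not tested. On day 5 the count was 6, against 13.7% of all genes, with Srxn1 at 5.69 and Prdx1 at 5.34.

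Within the Ccr7 gate of day 7, 5 of the 10 genes were at least 2-fold higher, against 22.2% of all genes. Nqo1 was at 1.18 CPM in control, from 10 UMIs, and at 24.1 CPM in heme, from 19 UMIs, a ratio of 20.4 with a wide interval of 9.01 to 49.0. Prdx1 was at 408 and 997 CPM, a ratio of 2.44 (2.26 to 2.64), and Sod1, Txnrd1 and Srxn1 had ratios of 3.02, 2.79 and 2.48. Cat had a ratio of 1.86, Prdx6 of 0.873 (0.677 to 1.11) and Prdx5 of 0.647. On day 5 the count was again 5, against 13.4% of all genes. With looser gates, 1 Ccr7 UMI or more, the day 7 count was 8, against 26.4% of all genes.

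Among the ungated cells, 0, 6, 7 and 7 of the 10 genes passed 2-fold on days 3, 4, 5 and 7, against 5.05%, 11%, 10.6% and 12.1% of all genes. The make-up of these cells was not the same in the 2 libraries on day 7. Their neutrophil markers summed to 3767 CPM in control and 16053 CPM in heme, those of mature dendritic cells to 11314 and 4518 CPM and those of macrophages to 869.7 and 829.6 CPM, and the part of this in the ratios was not tested. On day 7 the ratios were 10.9 for Nqo1, 5.17 for Cat, 4.26 for Srxn1, 3.78 for Prdx1 and 2.06 (2.00 to 2.12) for Prdx6. Prdx5 was at 1474 CPM in control and 721 CPM in heme, a ratio of 0.489, and was the 1 gene at 0.5 or less, where 5.51% of all genes were. Prdx6 was thus near 2-fold in ungated cells of days 4, 5 and 7, at 1.97, 2.06 and 2.06, and between 0.873 and 1.10 in the Camp and Ccr7 gates of days 4 to 7. The difference between gates was not tested.

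**Figure D4:**
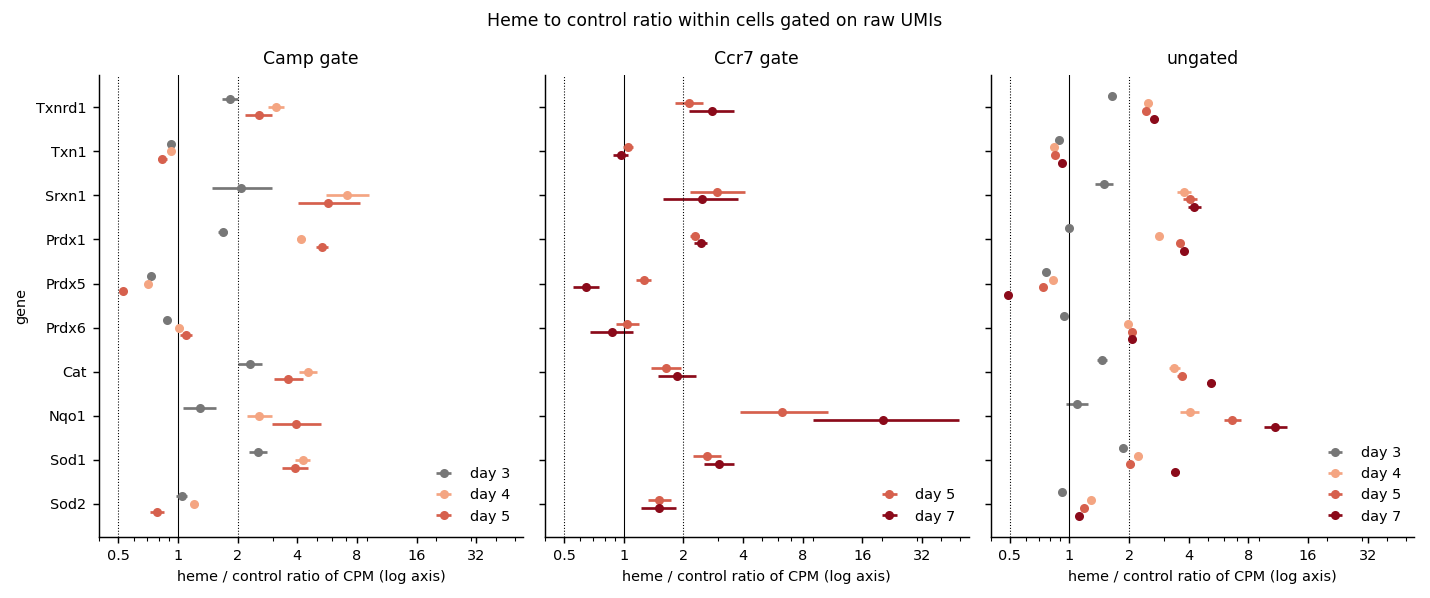
Heme to control ratio of CPM on a log axis for each gene within the Camp gate, the Ccr7 gate and the ungated cells, coloured by day, with exact 95% Poisson intervals; gates with under 50 cells in a culture are left out. Txnrd1, Srxn1, Prdx1, Sod1 and Nqo1 lie right of the 2-fold line in all 3 panels after exposure, while Prdx6 lies near 2 only among ungated cells.

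In the heme culture of day 7, the Marco gate differed little from the ungated cells, in the 10 genes as in all genes. The ratio of the Marco gate to the ungated cells ran from 0.868 for Prdx6 to 1.43 for Srxn1, and 0 of the 10 genes passed 2-fold, where 1.51% of all genes did. Against the Ccr7 gate of that culture 8 of the 10 genes were at least 2-fold higher, where 26.7% of all genes were. Prdx1 was at 6006 CPM in the Marco gate and 997 CPM in the Ccr7 gate, a ratio of 6.03 (5.62 to 6.47), and Nqo1, Srxn1 and Prdx6 had ratios of 4.59, 4.36 and 4.21. Txn1 and Sod1 were the 2 genes that did not pass, at 1.27 and 1.59. Against the Camp gate 6 of the 10 genes passed, where 20.2% of all genes did, with Prdx1 at 3.57 and Srxn1 at 3.22, while Prdx5 was at 640.4 CPM in the Marco gate and 1251 CPM in the Camp gate, a ratio of 0.512. Ccr7-gated control cells of day 7 held Prdx1 at 408 CPM and ungated control cells at 1422 CPM, so the Ccr7 gate had the lower level without heme too. When the heme levels of each gate were weighted by the share of UMIs that the gate had in the control culture, the count of day 7 was 6 of 10 in place of 7, against 14.9% of all genes. Prdx5, at 0.497, was then the 1 gene at 0.5 or less, where 5.17% of all genes were.

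Of 27 other thioredoxin, peroxiredoxin, glutaredoxin and dismutase genes, 25 had enough UMIs on day 7, 1 was at least 2-fold higher and 1 at 0.5 or less, against 15.2% and 7.32% of all genes, and their median log2 ratio was -0.15. The difference between this list and the 10 genes was not tested. Glrx, a glutaredoxin, was at 102 CPM in control and 215 CPM in heme, a ratio of 2.11. Gpx1, the selenium-dependent glutathione peroxidase, was at 1263 and 344 CPM, a ratio of 0.273 (0.268 to 0.277). It was at 0.923 and 0.984 on days 0 and 3, and at 0.422 and 0.364 on days 4 and 5, so this peroxidase ran against Prdx1 and Cat. Gpx4, which protects membrane lipids, was at 780.3 and 601 CPM, and Msrb1, a methionine sulfoxide reductase, at 438 and 431 CPM. With Gpx1 they were the genes of this list with the highest levels on day 7. The other peroxiredoxins Prdx2, Prdx3 and Prdx4 had ratios of 0.633, 0.785 and 0.914, and mitochondrial Txn2 had 0.815.

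Of 7 genes that regulate NRF2, 3 passed 2-fold on day 7, where 15.2% of all genes did, and the median log2 ratio was 0.84. Sqstm1, which ties KEAP1 to autophagy, was at 83.9 CPM in control and 325 CPM in heme, a ratio of 3.88. Bach1, a heme-binding repressor of the same response elements, had a ratio of 2.65, though it was at 2.24 on day 0 already, and Mafg, a partner of both factors, had 2.12. The transcript of NRF2 itself, Nfe2l2, was at 228 and 175 CPM, a ratio of 0.768. For comparison, 10 of 14 glutathione genes were at least 2-fold higher on day 7, with a median log2 ratio of 1.34, and 3 of 9 genes that supply NADPH, with a median of 0.71, against the same 15.2% of all genes. Among the former, Gclm and Gclc, the subunits of the enzyme that limits glutathione synthesis, had ratios of 15.7 and 4.98. The cystine carrier Slc7a11 and the glutathione reductase Gsr had ratios of 3.97 and 2.97. The transferases Gstm1, Mgst2, Mgst1 and Gstp1 had ratios of 9.79, 4.09, 2.12 and 2.08, and the esterase Esd one of 2.14. Gsta4, with 1 control UMI and 48 heme UMIs, had a ratio of 36.7 (6.28 to 1479). Before exposure, 1 of the 14 glutathione genes was already at least 2-fold higher on day 0, at a ratio of 5.73, and 0 on day 3. Of all genes, 16.9% and 6.68% were. The 3 NADPH genes were Me1, Pgd and G6pdx, which make the NADPH that Txnrd1 and Nqo1 consume, at ratios of 69.4, 2.93 and 2.33. Me1 had a low level, with a mean of 12.7 CPM over the 10 cultures. Of the 9 NADPH genes, 1 was at least 2-fold higher on day 0 and 1 on day 3, at ratios of 5.17 and 2.31. The shares of all genes on these days were 16.9% and 6.68%. Gpx1 and Gpx4 stand on 2 of these lists.

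**Figure D5:**
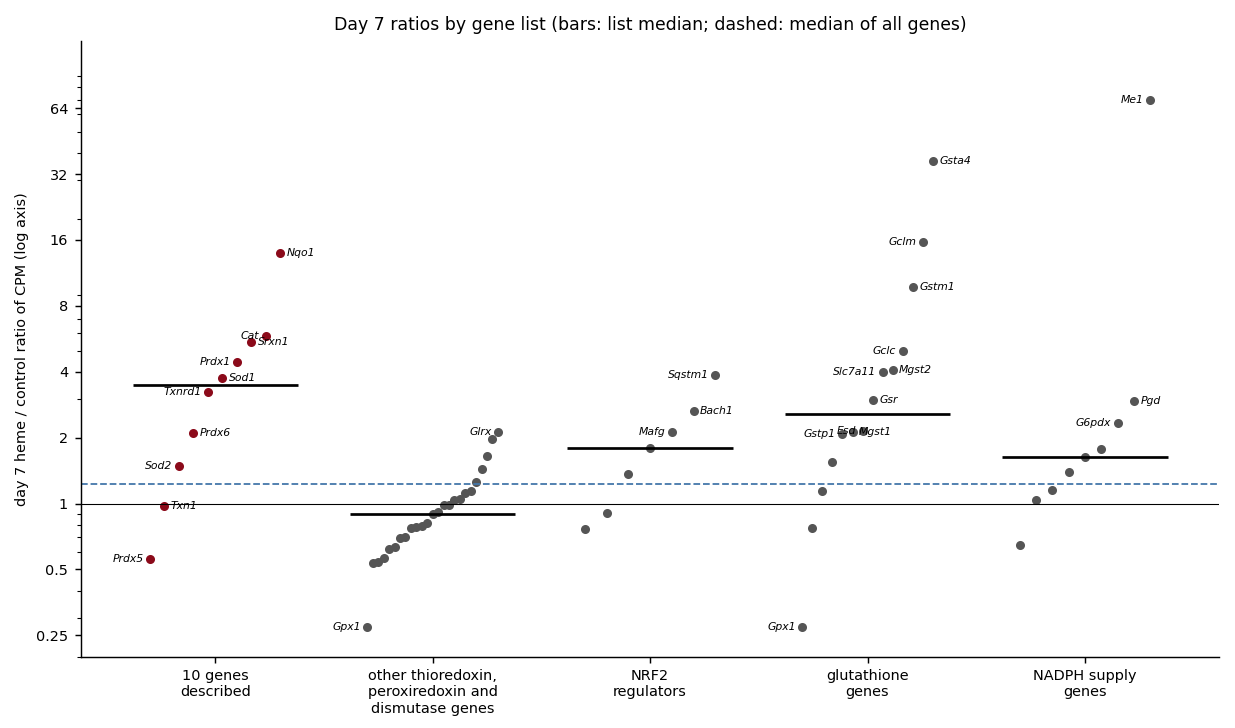
Heme to control ratio of CPM on day 7 (log axis) for the 10 genes and for 4 lists of other genes, 1 point a gene with at least 20 UMIs; bars are list medians and the dashed line is the median ratio of all genes. Gene names are given for the 10 genes and for those past 2-fold either way; Gpx1 at 0.273 lies lowest, and the median of the other thioredoxin and peroxiredoxin genes lies below 1.

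Across the 10 cultures, which share library, depth and free RNA within an agent, log2(CPM + 1) of Srxn1 ran closest with Prdx1 (Pearson r = 0.94) and Txnrd1 (r = 0.93), and that of Nqo1 with Txnrd1 (r = 0.92) and Cat (r = 0.91). Txn1 and Prdx5 ran closest with each other (r = 0.98) and next with Sod2 (r = 0.79 and 0.78). Both had negative values with Sod1 (r = -0.59 and -0.58). Among 7940 genes with a mean of at least 10 CPM, the genes most like Prdx1 were Cyb5a (r = 0.99), the ferritin heavy chain Fth1 (r = 0.98) and the carbonyl reductase Cbr3 (r = 0.98). Srxn1 was most like the lipid droplet gene Plin2, Rnf11 and Ftl1-ps1, a copy of the ferritin light chain gene, each at r = 0.99. Nqo1 was most like Me1 (r = 0.97), Tnfaip2 (r = 0.96) and Slc6a4 (r = 0.95). Cat was most like Hgsnat, Chpf2 and Ikbkg, with r from 0.993 to 0.999, and Txnrd1 most like Vps26a, Man2a1 and Tbk1, with r from 0.97 to 0.98. Sod2 was most like Map1lc3a (r = 0.97), Arg2 (r = 0.96) and Tmem120a (r = 0.95). With 10 points these values describe the cultures and order the genes, and no more.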

How the data were processed

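Single-cell 3′ libraries (10x Genomics v3.1) were measured for the control and heme cultures, 1 each. The authors deposited raw UMI counts per gene and barcode; per the labels and methods they used Cell Ranger 4.0.0 (the matrix header names 5.0.0) on GRCm38.p6, and Seurat 3.2.3 to assign hashtags. Counts of single-hashtag barcodes were summed per library and day here and divided by the total (CPM). No further doublet caller was run. A ratio of 2 or more, or 0.5 or less, with 20 UMIs in both cultures together, was counted. Intervals were exact Poisson (scipy 1.17.1), with no test at 1 library per agent. The ratio code was tested on simulated data. The limits of the study, 500 to 5000 genes, under 15% mitochondrial and 30% ribosomal UMIs, kept unequal shares of the libraries and were an alternative, as were TMM (edgeR 4.0.16) and DESeq2 1.42.0 scaling. Named genes were all 10 genes, others of fixed lists past 2-fold on day 7, the 3 highest of the other thioredoxin and peroxiredoxin genes, and the 3 most like genes for 6 of them; Prdx2, Prdx3, Prdx4, Txn2, Nfe2l2 and Prdx6b were added after their values were seen. Genes, lists and gates were chosen with earlier results of these data known. Gene positions came from GENCODE M21 and promoters from RefSeq.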

Additional observations from a re-analysis of the deposited data

Results flagged for a closer look

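Prdx6 had a heme to control ratio of 0.917 on day 3 and 2.10 on day 7, and Sod2 had 0.934 on day 3 and 1.49 on day 7, so for both genes the counting intervals lay on opposite sides of 1 before and after exposure. Prdx5 on day 5 had a ratio of 0.530 in the Camp gate, 0.736 in ungated cells and 1.26 in the Ccr7 gate, where the median ratio of all genes was 1.32, 1.15 and 1.26 in that order. In the Ccr7 gate Prdx5 was thus at the median of all genes on day 5, and on day 7 its ratio there was 0.647. Sod2 on day 5 had a ratio of 0.783 in the Camp gate, 1.19 in ungated cells and 1.51 in the Ccr7 gate. The opposite sides of 1 were not tested, since each agent had 1 library.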

How the results depend on the processing

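For days 4, 5 and 7 the count of genes at least 2-fold higher stayed within 1.5 times its value under each alternative run. The day 4 count of 6 became 4 with the limits of the study, against 9.65% of all genes. With each ratio divided by that of day 3, the counts of days 4, 5 and 7 were 4, 5 and 5. All genes then gave 4.07%, 4.93% and 8.37%. On day 0 the count of 2 became 1 with the limits of the study, where 13.8% of all genes passed, and with mean per-cell CPM, where 18.5% did. With a minimum of 10 CPM as the mean of the 2 cultures, Srxn1, at 3.87 and 8.60 CPM, was left out. Sod1 was the gene still counted. With TMM or DESeq2 scaling the day 0 count was 0, where 5.67% and 5.26% of all genes passed. At 1.5-fold it was 4, where 42.9% of all genes passed. At 1.5-fold the day 3 count was 4, where 30.5% of all genes passed. The ungated cells of day 0 were 99.5% of control and 98.1% of heme barcodes. Among them the count of 2 likewise became 1 with the limits of the study. In the Ccr7 gate of day 7 it was 8 with looser gates, against 26.4% of all genes, and the limits of the study left too few cells for a value. The causes were not tested. Of the ratios of single genes, 456 alternative values lay within the counting interval and 364 outside it, and no ratio past 2-fold crossed 1. For Prdx1 with the limits of the study the ratio was 1.89 on day 4 and 2.18 on day 5, in place of 2.73 and 3.96, and Nqo1 on day 7 was 9.36 with mean per-cell CPM. Leaving out 49 shared barcodes was added after the data were seen. No paired analysis was possible because each agent had 1 library, and none could be left out.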
